A study of Mus musculus with 2 samples.

Results

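The mitochondrial carrier family was examined in mouse calf muscle as the genes whose symbol begins with Slc25a, together with the uncoupling protein genes Ucp1, Ucp2 and Ucp3. A gene was a member when at least 1 of its annotated transcripts was protein-coding, which gave 50 members among 55536 annotated genes. Total RNA came from the gastrocnemius of 2 adult male mice aged 8 to 10 months, with 1 library made from 300 ng of RNA per animal. Both were B6CASTF1/J, a first-generation cross of C57BL/6J and CAST/EiJ, and no treatment was named. The labels numbered them animal 2 (replicate 1 here) and animal 4 (replicate 2) but gave them 1 shared donor identifier. The p-values below therefore measure only the difference between 2 libraries, which may be technical. Each gene had 1 value per library, so the alleles of the parent strains were not separated.

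Most members of the family sit in the inner mitochondrial membrane and move nucleotides, phosphate, carboxylic acids, amino acids or cofactors between cytosol and matrix. In skeletal muscle, the ADP/ATP exchangers and the phosphate carrier feed ATP synthase, and the aspartate/glutamate and oxoglutarate carriers complete the malate-aspartate shuttle that brings reducing power from glycolysis into the matrix. The uncoupling proteins are relatives of these carriers, of which Ucp1 makes heat in brown fat and Ucp3 is the form typical of skeletal muscle.

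Genes held 36792611 counts in replicate 1 and 37752249 in replicate 2, and a count of 0 allows up to 3 counts, which equalled 0.0815 and 0.0795 CPM (counts scaled to library size). The libraries fitted the muscle label: 10 fast fibre markers held 74296 and 80869 summed TPM (a level per transcript length, scaled to a fixed total per library) and 9 slow fibre markers 1687 and 1114. All 10 fast markers were called higher in replicate 2 and all 9 slow markers higher in replicate 1 (against 10.7% and 10.8% of all genes tested). Called means an adjusted p under 0.05 in an exact binomial test of the counts of the 2 libraries. The median log2 ratio, replicate 2 over replicate 1, was only 0.13 for fast markers, against -0.60 for slow markers. Scaling the libraries by spike-ins moved the median of all genes tested from 0.0055 to -0.14. The direction of fast marker ratios as small as their median therefore depends on how the libraries are scaled. In whole tissue, fewer cells of a type and less RNA per cell cannot be told apart. Intervals and limits below cover counting error only, and values after ± are SDs over the 2 animals.

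A few carriers made up most of the family's RNA. The 50 members summed to 2437 TPM in replicate 1 and 2311 TPM in replicate 2, which was 0.547% ± 0.0261 of the TPM of all nuclear protein-coding genes. Slc25a4 alone held 52.3% ± 1.27 of the family's TPM, the top 2 members 72.8% ± 1.80, and the top 4 (Slc25a4, Slc25a3, Slc25a12 and Slc25a11) 84.8% ± 2.37. These 4 were the members at 100 TPM or more in both animals, or 8.00% of the family against 2.30% of nuclear protein-coding genes. At 1 TPM or more stood 36 members, or 72.0% against 44.6%.

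Of the 50 members, 41 averaged at least 10 counts and entered the test, 5 had fewer counts, and 4 had 0 counts in both libraries. Called were 14 of the 41 (34.1%), against 21.6% of all 14101 genes tested. Higher in replicate 1 were 10 members (24.4%, against 10.8% of all genes) and higher in replicate 2 were 4 (9.76%, against 10.7%). When libraries were scaled by total counts, 7 members (17.1%) were called in each direction, against 5.21% of all genes higher in replicate 1 and 25.7% higher in replicate 2. When scaled by spike-ins, 24 members (58.5%, against 31.0% of all genes) were called higher in replicate 1 and 1 (2.44%, against 4.60%) in replicate 2. With a biological variation set to 0.1 in the exact test of edgeR, 2 members (4.88%) were called, Slc25a25 and Ucp3, against 2.06% of all genes.

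Among the 31 members that averaged at least 100 counts, 5 (16.1%) were at least 1.5-fold apart, against 3.39% of 9516 such genes. Slc25a25, Ucp3, Slc25a34 and Slc25a36 were higher in replicate 1 (12.9% of members, against 1.72% of genes), and Slc25a33 in replicate 2 (3.23%, against 1.67%). Slc25a36 fell below 1.5-fold when libraries were scaled by total counts, and Slc25a33 when they were scaled by spike-ins. The median log2 ratio, replicate 2 over replicate 1 here and below, was -0.12 over the 41 members and 0.0055 over all genes tested. Scaling by total counts moved the median of all genes to 0.12 and that of the members to -0.0021. With spike-ins they were -0.14 and -0.26. The members' median lay below that of all genes in each, but a change of scaling moves all ratios by nearly the same amount. These scalings are therefore not separate checks of that gap.

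**Figure D1:**
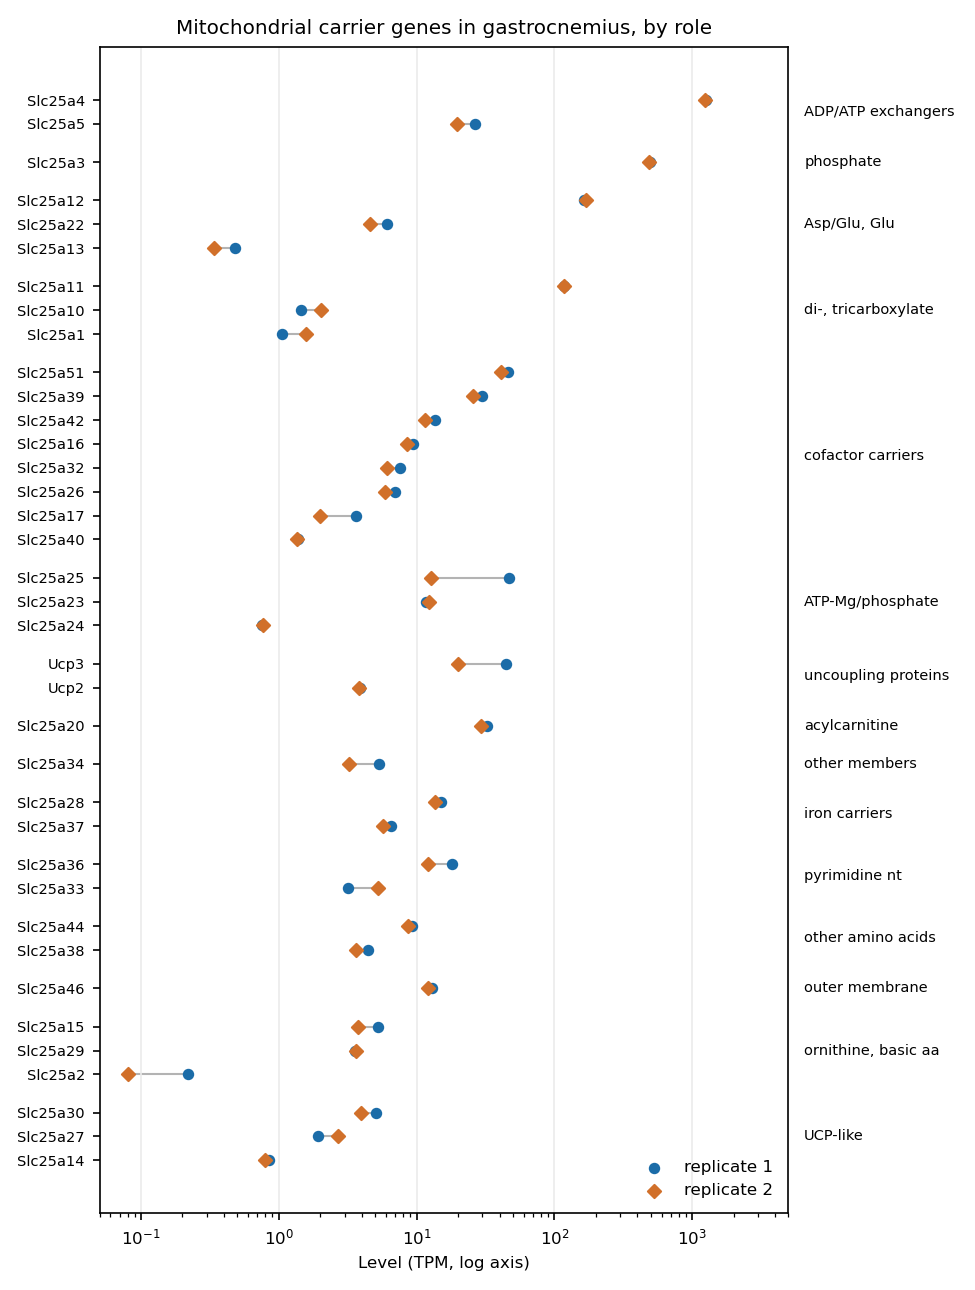
Levels of 37 carrier genes in each animal in TPM on a log axis, grouped by role and ordered by summed level. Members with a mean under 0.1 TPM, and members without a listed role that are less than 1.5-fold apart, are not drawn (13 in all). Slc25a4 lay above 1200 TPM in both animals, and the widest gaps between animals at a level above 10 TPM belonged to Slc25a25 and Ucp3.

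**Figure D2:**
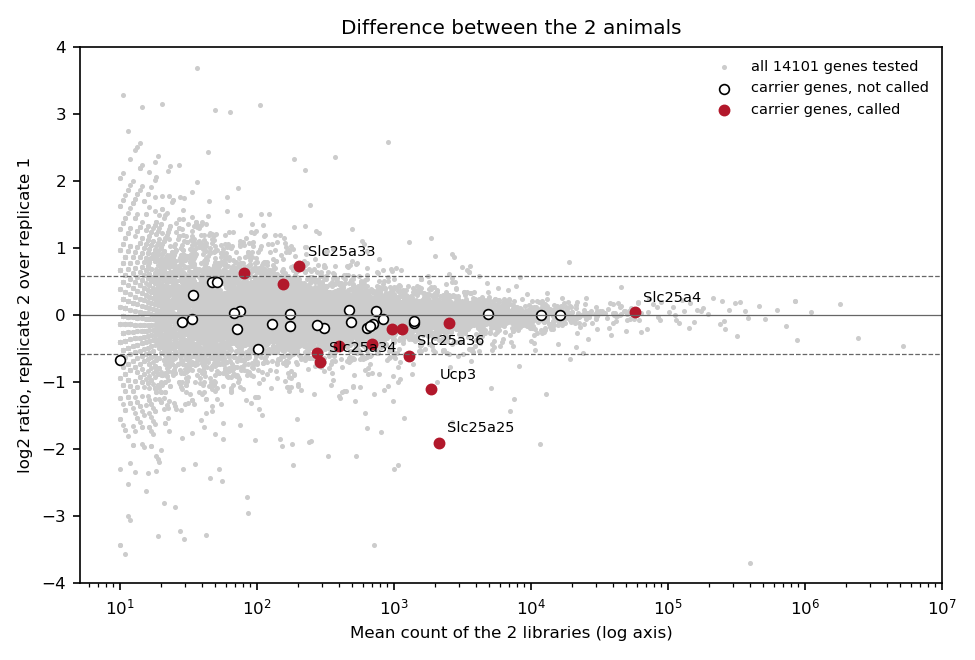
The log2 ratio of counts, replicate 2 over replicate 1, against the mean count on a log axis for all 14101 genes tested (grey) and the 41 carrier genes (red when called, open when not). Dashed lines mark 1.5-fold, 36 other genes lie beyond the axis, and Slc25a25 and Ucp3 lie lowest among the carriers.

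The ADP/ATP exchangers were represented almost wholly by the muscle and heart form. Slc25a4 (ENSMUSG00000031633.4, mm10 chromosome 8, 46206797 to 46211284, minus strand) held 53800 and 61697 counts, or 1254 and 1230 TPM, in replicates 1 and 2. At 1242 ± 16.5 TPM it ranked 30 among nuclear protein-coding genes, the set used for all ranks here. Its log2 ratio of 0.05 (95% interval 0.03 to 0.06, adjusted p = 5.56e-07, exact binomial test) was a small difference resolved by depth, and it turned to -0.10 when libraries were scaled by spike-ins.

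Slc25a5, the form found in most dividing cells, held 765 and 633 counts, or 26.7 and 19.6 TPM. It was higher in replicate 1 with a log2 ratio of -0.42 (-0.58 to -0.27, adjusted p = 8.53e-07, exact binomial test). Slc25a4 therefore exceeded Slc25a5 47.0-fold in replicate 1 and 62.7-fold in replicate 2, a mean log2 ratio of 5.76 ± 0.29. Their coding sequences are 894 bases each and 77.4% identical. Only 50.6% of the 31-base words of Slc25a5 occurred in no other gene, but the 13 genes that share words with it, all pseudogenes, held 3.02 and 1.00 counts in all. Slc25a31, the testis form, had 0 counts in both libraries.

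Slc25a4 had a protein-coding and a retained-intron transcript. The coding Slc25a4-201 held 81.4% and 89.6% of the gene's TPM and the retained-intron Slc25a4-202 the other 18.6% and 10.4%. In the second quantification the retained-intron share was 3.35% and 1.11%, so its size depended on the quantifier, while both gave more of it in replicate 1.

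The phosphate carrier came next. Slc25a3 (ENSMUSG00000061904.12, chromosome 10, 91116574 to 91124059, minus strand) imports phosphate for ATP synthase and also carries copper. It held 15545 and 17333 counts, or 491 and 482 TPM (487 ± 5.84, rank 78), and was not called, with a log2 ratio of 0.01 (-0.02 to 0.04). It was called under other scalings, at 0.12 with total counts and -0.14 with spike-ins. Its level was about the size of single ATP synthase subunits such as Atp5g1, a membrane subunit, at 541 ± 3.13 TPM, and below Atp5b, the catalytic subunit, at 1473 ± 51.2 TPM.

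Slc25a3 carries a pair of mutually exclusive exons, and its RNA was mostly of the muscle and heart form with exon 3A. Exon 3A lies at chr10:91122207-91122331 and has 125 bases, and exon 3B, the form of other tissues, lies at chr10:91121922-91122043 with 122 bases, both in mm10 on the minus strand and both coding. The exons are shown 5′ to 3′ because the isoform shares rest on telling them apart. Capitals mark bases that are identical in an alignment of the pair, which were 77 of 125 columns (61.6%).
exon 3A: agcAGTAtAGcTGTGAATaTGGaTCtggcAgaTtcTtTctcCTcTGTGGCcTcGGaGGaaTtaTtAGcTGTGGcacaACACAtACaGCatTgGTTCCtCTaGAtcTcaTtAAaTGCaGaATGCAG
exon 3B: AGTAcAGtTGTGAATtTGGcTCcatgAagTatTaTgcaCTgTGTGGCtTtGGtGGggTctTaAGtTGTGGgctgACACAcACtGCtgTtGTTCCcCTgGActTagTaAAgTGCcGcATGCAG

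Transcripts with exon 3A held 95.0% of the gene's TPM in replicate 1 and 93.7% in replicate 2 (94.4% ± 0.891). Those with exon 3B held 4.67% and 6.14% (5.41% ± 1.04). In the second quantification exon 3A held 85.6% and 83.2%, so 3A was the larger share in both animals by both methods and its size moved by more than the spread between animals. Nearly all 3A reads went to Slc25a3-206, with 14554 and 16009 counts.

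**Figure D3:**
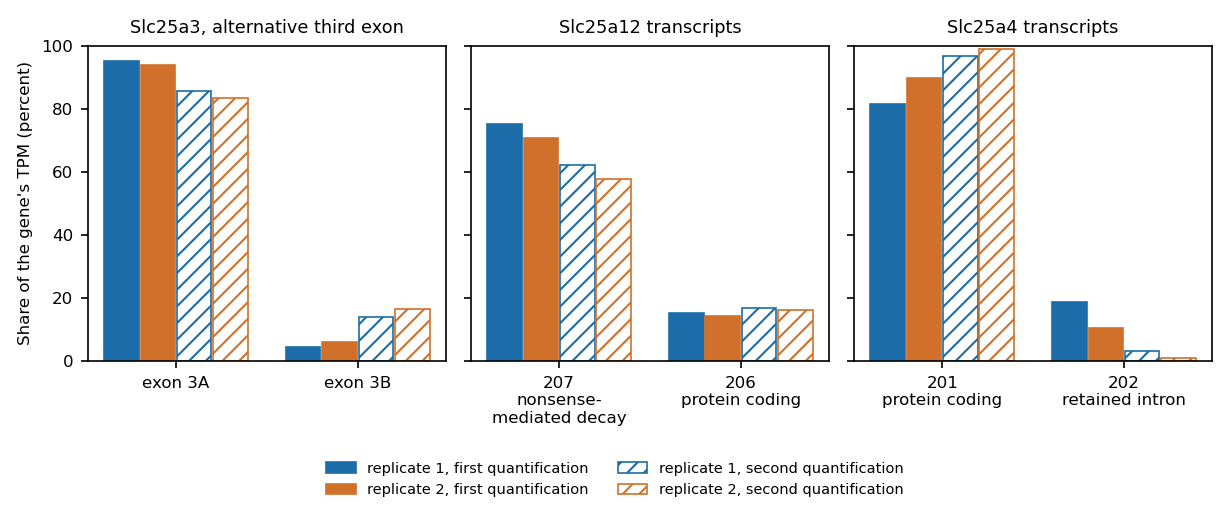
Share of a gene's TPM in percent for Slc25a3 transcripts with exon 3A or 3B, for Slc25a12-207 and Slc25a12-206, and for Slc25a4-201 and Slc25a4-202. Bars give each animal in the first (filled) and second (hatched) quantification. Exon 3A, Slc25a12-207 and Slc25a4-201 held the larger share of their pair in all 4 values.

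Carriers of the malate-aspartate shuttle were abundant and differed little between the animals. Slc25a12 (ENSMUSG00000027010.16, chromosome 2, 71271063 to 71367749, minus strand), the calcium-binding aspartate/glutamate carrier of excitable tissues, held 11340 and 12547 counts, or 165 and 169 TPM. Slc25a11, the oxoglutarate/malate carrier, held 4615 and 5161 counts, or 117 and 117 TPM. Neither was called, with log2 ratios of -0.0044 (-0.04 to 0.03) and 0.01 (-0.05 to 0.07). Both were called under other scalings, in opposite directions. Under total counts they were higher in replicate 2 (0.11 and 0.12), and under spike-ins higher in replicate 1 (-0.15 and -0.14).

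The liver-type aspartate/glutamate carrier Slc25a13 held only 28 and 29 counts, or 0.480 and 0.340 TPM. Slc25a12 exceeded it 344-fold in replicate 1 and 496-fold in replicate 2, a mean log2 ratio of 8.69 ± 0.37 that rests on those few counts. These are levels of whole genes, and the protein-coding transcript of Slc25a12 alone held only 25.3 and 24.3 TPM. The glutamate carrier Slc25a22 held 314 and 236 counts and was called higher in replicate 1 (log2 ratio -0.56, -0.81 to -0.31, adjusted p = 7.75e-05, exact binomial test). Its relative Slc25a18 had 1 and 0 counts.

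Most of the Slc25a12 level was assigned to a transcript annotated for nonsense-mediated decay. Slc25a12-207 held 75.2% and 70.8% of the gene's TPM (73.0% ± 3.13) and the protein-coding Slc25a12-206 held 15.3% and 14.4% (14.9% ± 0.651). In the second quantification the shares were 60.0% ± 2.99 and 16.6% ± 0.633. In counts the gap was smaller, 7179 and 7815 against 3989 and 4336, because Slc25a12-206 is 6351 bases long and Slc25a12-207 is 2392.

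The pair differ in more than 1 place. Slc25a12-207 lacks exon 4 of the coding transcript, 116 bases at chr2:71333605-71333720 in mm10 on the minus strand, after which its annotated coding stretch totals 261 bases in place of 2031. It also ends sooner, with a last exon of 664 bases against 4291. Reads on the shared exons can be assigned to either transcript, and which of these differences the shares rest on was not tested. Exon 4, the coding piece whose presence separates the pair inside the gene, reads 5′ to 3′ as follows, all in lower case.
Slc25a12 exon 4: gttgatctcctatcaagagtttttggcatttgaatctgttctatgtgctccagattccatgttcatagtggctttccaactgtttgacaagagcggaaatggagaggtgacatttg

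The other carboxylate carriers were scarce. Slc25a10, the dicarboxylate carrier, held 59 and 102 counts, or 1.44 and 2.03 TPM, and was called higher in replicate 2 (log2 ratio 0.63, 0.16 to 1.13, adjusted p = 0.036, exact binomial test), a call lost with spike-ins and in the second quantification. Slc25a1, the citrate carrier used for fat synthesis, held 40 and 63 counts and was not called. Slc25a21, the oxodicarboxylate carrier, had 2 counts in each library. The oxoglutarate carrier Slc25a11 thus stood apart from the rest of its group in level by well over an order of magnitude.

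The shuttle enzymes around these carriers were also at high levels. Of 6 enzymes of the malate-aspartate and glycerol phosphate shuttles, 1 was called higher in replicate 1 and 3 in replicate 2, with a median log2 ratio of 0.05. Of all genes tested, 10.8% and 10.7% were called in those directions. The most abundant were Mdh2, mitochondrial malate dehydrogenase, at 408 and 404 TPM, and Mdh1, its cytosolic form, at 275 and 247 TPM. Gpd1, cytosolic glycerol phosphate dehydrogenase, followed at 192 and 209 TPM.

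Among the uncoupling proteins, Ucp3 carried most of the RNA and differed between the animals. Ucp3 (ENSMUSG00000032942.14, chromosome 7, 100472990 to 100486432, plus strand) held 2489 counts in replicate 1 and 1281 in replicate 2, or 44.4 and 20.1 TPM. It was 2.16-fold higher in replicate 1 (log2 ratio -1.11, -1.21 to -1.01, adjusted p = 9.98e-115, exact binomial test). The ratio lay between -1.26 and -0.99 under the scalings tried and was -1.04 in the second quantification. Among transcripts, which were looked at after the gene's values were seen, the coding Ucp3-201 held 84.6% and 85.0% of the TPM.

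Ucp2, the widely expressed form and the neighbour of Ucp3 on chromosome 7 (100493337 to 100502020), held 129 and 131 counts, or 3.89 and 3.81 TPM. It was not called (log2 ratio -0.13, -0.49 to 0.23). The Ucp3 level therefore exceeded that of Ucp2 11.4-fold in replicate 1 and 5.27-fold in replicate 2, although their coding sequences, 924 and 927 bases long, are 73.7% identical. A test of the difference between the ratios of the 2 genes was not run.

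Ucp1, the brown fat form, had 0 counts in both libraries, which allows up to 0.0815 and 0.0795 CPM. Of 10 brown and beige fat markers 9 were tested and Elovl3, a fatty acid elongase of brown fat, was at 0. The list's summed level of 1153 and 1206 TPM was nearly all Cox8b, at 736 and 808 TPM, and Cox7a1, at 412 and 393 TPM, subunits of cytochrome oxidase that muscle also expresses. The median marker stood at 0.660 and 0.635 TPM.

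The UCP-like carriers of other tissues were low but present. Slc25a30 held 277 counts in each library, or 5.04 and 3.93 TPM, and Slc25a14 held 33 and 35. Slc25a27 held 123 and 188 counts, or 1.94 and 2.68 TPM, and was called higher in replicate 2 (log2 ratio 0.46, 0.13 to 0.80, adjusted p = 0.033, exact binomial test). That call was lost with spike-ins and in the second quantification.

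The ATP-Mg/phosphate carriers exchange ATP-Mg for phosphate and so set the adenine nucleotide pool of the matrix. All but Slc25a41 have longer coding sequences than most of the family. Slc25a25 (ENSMUSG00000026819.15, chromosome 2, 32414487 to 32451445, minus strand) showed the widest difference of any tested member. It held 3284 counts in replicate 1 and 975 in replicate 2, or 47.0 and 12.7 TPM. It was 3.74-fold higher in replicate 1, with a log2 ratio of -1.90 (-2.01 to -1.80) and an adjusted p too small for the number format. The ratio lay between -2.05 and -1.79 under the scalings tried.

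Its relatives did not differ in that way. Slc25a23 held 437 and 511 counts, or 11.7 and 12.3 TPM, and Slc25a24 held 64 and 73, or 0.760 and 0.770 TPM. Neither was called, with log2 ratios of 0.08 (-0.11 to 0.26) and 0.04 (-0.46 to 0.55). Slc25a25 was therefore the leading ATP-Mg carrier in replicate 1, where Slc25a23 was at 0.249 of its level, and close to Slc25a23 in replicate 2, where the level ratio was 0.965. In the second quantification the log2 ratio of Slc25a23 to Slc25a25 was -1.49 in replicate 1 and 0.26 in replicate 2, so the order in replicate 2 depended on the quantifier. Slc25a41 had 1 and 0 counts.

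Slc25a25 has 3 main annotated starts, and transcripts from each were higher in replicate 1. Transcripts from start 1, the farthest upstream, held 2103 and 554 counts (log2 ratio -2.07), those from start 2 held 109 and 47.8 (-1.32), and the transcript from start 3 held 1036 and 360 (-1.67). The second quantification gave -2.07, -0.86 and -1.83. The 5 transcripts that begin elsewhere held 2.55 and 0.810 TPM in the first quantification (5.45% and 6.42% of the gene) but 0.672 and 1.25 TPM in the second, where they were higher in replicate 2. In replicate 1 start 1 held 56.0% of the gene's TPM and start 3 held 35.9%, and in replicate 2 they held 48.0% and 40.6%. These starts were examined after the gene's values were seen and carry no test.

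**Figure D4:**
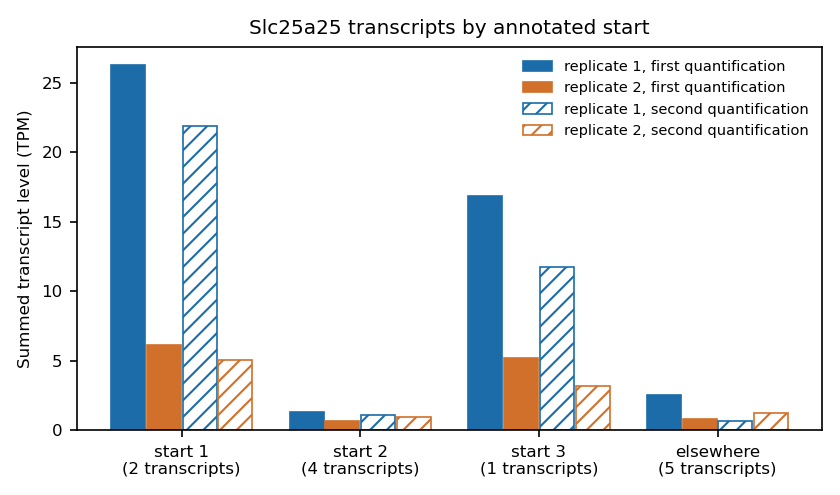
Summed TPM of Slc25a25 transcripts by annotated start, with transcripts that begin elsewhere as a group of their own. Bars give each animal in the first (filled) and second (hatched) quantification. At starts 1, 2 and 3 replicate 1 was higher in both quantifications.

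A cAMP response element, TGACGTCA, the site bound by CREB, was searched with a few other short motifs on both strands in the 250 bases before RefSeq starts (build GRCm38.p6). These motifs were chosen after the ratios were seen. It was present in 2 of 49 windows of members (39 genes matched), those of start 3 of Slc25a25 and of Slc25a36, and in 1.55% of 32851 windows of all genes. Both of these genes were among the 4 that were at least 1.5-fold higher in replicate 1, although Slc25a36 was not under total counts (log2 ratio -0.49). Because the motifs were chosen after those ratios were seen, this overlap is no test of the element. The windows of starts 1 and 2 of Slc25a25 did not hold the element, although start 1 had a larger share and a wider ratio than start 3. The window of Ucp3 held none of the motifs searched. That of Slc25a34 held AAGGTCA, a nuclear receptor site present in 2.04% of member windows and 4.08% of all windows. Any part of these motifs in the ratios was not tested.

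The whole window before start 3 of Slc25a25, chr2:32424067-32424316, is given here with the part of the Slc25a36 window that lies upstream of any annotated exon, chr9:97111158-97111291, because they hold the element. Both are on the minus strand, 5′ to 3′. Capitals mark TGACGTCA, at 150 and 161 bases before the start. They also mark CCAAT or its reverse complement ATTGG in both and the E-box CACGTG in Slc25a36.
Slc25a25 start 3: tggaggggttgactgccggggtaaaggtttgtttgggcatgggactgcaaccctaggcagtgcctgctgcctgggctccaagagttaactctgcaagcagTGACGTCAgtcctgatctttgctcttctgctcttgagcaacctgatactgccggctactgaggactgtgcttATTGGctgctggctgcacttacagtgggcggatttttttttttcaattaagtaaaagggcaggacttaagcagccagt
Slc25a36: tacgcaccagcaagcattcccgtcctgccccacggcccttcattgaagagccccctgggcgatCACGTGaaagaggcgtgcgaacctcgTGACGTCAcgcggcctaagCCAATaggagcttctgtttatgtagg

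CCAAT or its reverse complement was in 42.9% of member windows and 33.9% of all windows, and CACGTG in 16.3% and 6.02%. The TATA box letters TATAAA were in 4.08% of member windows and 12.4% of all. A match says only that the letters are there, and windows of 1 gene can overlap. The matches in capitals do not overlap each other.

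The pyrimidine nucleotide carriers, which supply the matrix for mitochondrial RNA and DNA, differed in opposite directions. Slc25a36 held 1486 and 1085 counts, or 18.0 and 12.2 TPM, and was 1.52-fold higher in replicate 1 (log2 ratio -0.60, -0.72 to -0.49, adjusted p = 3.56e-24, exact binomial test). Slc25a33 held 144 and 266 counts, or 3.20 and 5.22 TPM, and was 1.66-fold higher in replicate 2 (log2 ratio 0.73, 0.44 to 1.04, adjusted p = 8.77e-06, exact binomial test). Slc25a36 exceeded Slc25a33 in both animals, but the log2 ratio of Slc25a33 to Slc25a36 was -2.50 in replicate 1 and -1.22 in replicate 2. The directions of both held under every scaling tried, but Slc25a36 fell below 1.5-fold under total counts (-0.49) and Slc25a33 under spike-ins (0.58).

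Slc25a20, the carnitine/acylcarnitine carrier that brings fatty acids into the matrix, held 1381 and 1415 counts, or 32.6 and 29.5 TPM. It was not called, with a log2 ratio of -0.12 (-0.22 to -0.0072, adjusted p = 0.124, exact binomial test). Around it, 6 of 11 genes of fatty acid entry and oxidation were called, all higher in replicate 1 (against 10.8% of all genes tested). Their median log2 ratio was -0.10. Scaling by total counts moved the median of all genes from 0.0055 to 0.12, so the direction of ratios this small depends on the scaling. The 3 most abundant were Hadhb, a subunit of the trifunctional protein, at 207 and 178 TPM, Crat, carnitine acetyltransferase, at 174 and 164 TPM, and Acadm, medium-chain acyl-CoA dehydrogenase, at 143 and 138 TPM. Cpt1a, the liver form of the carnitine palmitoyltransferase, was the only one of the 11 over 1.5-fold apart at 100 or more counts, with 261 and 187 counts (log2 ratio -0.63).

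Cofactor carriers formed the middle of the family. The 8 members listed under this role held 119 and 102 summed TPM, and 3 were called, all higher in replicate 1 (against 10.8% of all genes tested). Slc25a51, the NAD carrier, held 46.4 and 40.9 TPM (log2 ratio -0.12, -0.20 to -0.04), and Slc25a39, a glutathione carrier, 29.9 and 25.7 TPM (-0.21, -0.33 to -0.09). Slc25a42, a coenzyme A carrier, held 13.6 and 11.4 TPM (-0.21, -0.34 to -0.08). All 3 calls were lost when libraries were scaled by total counts.

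Uncalled cofactor carriers ranged from Slc25a16 at 9.47 and 8.47 TPM to Slc25a40, the relative of Slc25a39, at 1.38 and 1.35 TPM. Slc25a39 exceeded Slc25a40 by a log2 ratio of 4.34 ± 0.13. Slc25a42 exceeded Slc25a16 by 0.48 ± 0.06, a gap that was 0.0018 in the second quantification. Slc25a17, the peroxisomal carrier, held 116 and 90 counts and missed the threshold (log2 ratio -0.51, -0.93 to -0.11, adjusted p = 0.0535, exact binomial test).

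Iron carriers supply heme and iron-sulfur cluster synthesis. Slc25a28, mitoferrin 2 of most tissues, held 15.1 and 13.5 TPM, and Slc25a37, mitoferrin 1 of red cell precursors, 6.54 and 5.71 TPM. Neither was called, and the log2 ratio of Slc25a37 to Slc25a28 was -1.22 ± 0.03. Of 9 erythroid markers, 5 were tested and 3 called, all higher in replicate 2 (against 10.7% of all genes tested). The list's summed level of 223 and 251 TPM was carried by globins, while Epb42 was at 0. Among 10 genes of heme and iron-sulfur synthesis 1 was called (against 21.6% of all genes tested). It was Alas1, the first enzyme of heme synthesis, higher in replicate 2 at 73.8 and 77.6 TPM. Its log2 ratio was 0.13, and spike-ins moved the median of all genes from 0.0055 to -0.14, so its direction depends on the scaling.

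Amino acid carriers were lower. Slc25a44, a branched-chain amino acid carrier, held 9.28 and 8.71 TPM, and Slc25a38, a glycine carrier, 4.42 and 3.65 TPM, and neither was called. Slc25a15, the ornithine carrier, held 444 and 358 counts, or 5.27 and 3.76 TPM, and was called higher in replicate 1 (log2 ratio -0.46, -0.67 to -0.26, adjusted p = 9.14e-05, exact binomial test). Slc25a29, a basic amino acid carrier, held 3.57 and 3.62 TPM and was not called. Slc25a2, the other ornithine carrier, had 7 and 3 counts.

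Slc25a46, an outer membrane member tied to mitochondrial shape, held 12.9 and 12.1 TPM and was not called. Slc25a34, whose cargo is not given here, held 347 and 237 counts, or 5.36 and 3.23 TPM, and was 1.62-fold higher in replicate 1 (log2 ratio -0.70, -0.94 to -0.46, adjusted p = 1.52e-07, exact binomial test). Its relative Slc25a35 held 73 and 70 counts and was not called. Slc25a47, Slc25a53 and Slc25a45 had means between 0.310 and 1.97 TPM and were not called.

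Beside the scarce members already described, Slc25a43 had 2 and 0 counts. With 0 counts in both libraries stood Ucp1, Slc25a31, Slc25a48 and Slc25a54, for which the limit is that given for Ucp1. Low counts say only that these genes were not detectable at this depth.

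Coding length varied little across the family. The 50 members had coding sequences of 690 to 2031 bases with a median of 951, and 41 lay between 800 and 1200. The longest were Slc25a12 and Slc25a13 at 2031 and 2028 bases, and the ATP-Mg carriers Slc25a23, Slc25a24 and Slc25a25 had 1401, 1425 and 1506. Beside Slc25a5, every member had at least 91.2% of its 31-base words in no other gene. The lowest of these were Slc25a20 at 91.2%, Slc25a36 at 92.2% and Slc25a37 at 92.3%.

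Related gene lists gave the setting of the members that were higher in replicate 1. These lists were chosen with earlier results of these data known. Of 11 tested PPAR and fasting targets, 8 were called, all higher in replicate 1 (against 10.8% of all genes tested), with a median log2 ratio of -0.26. Pdk4, the kinase that shuts pyruvate dehydrogenase, held 18048 and 5308 counts, or 302 and 76.7 TPM (log2 ratio -1.92). Fabp3, the muscle fatty acid binding protein, held 425 and 317 TPM (-0.39), and Txnip, an inhibitor of glucose uptake, 202 and 170 TPM (-0.27).

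Of 11 calcium and CREB responsive genes, 7 were called, 6 of them higher in replicate 1 (against 10.8% of all genes tested), with a median of -0.53. Nr4a3, a nuclear receptor induced by activity, held 1315 and 135 counts (log2 ratio -3.42). Atf3, a stress-induced factor, held 373 and 111 counts (-1.89), Sik1, a kinase induced by CREB, 957 and 330 (-1.68), and Crem, a CREB relative, 292 and 186 (-0.80). The exception called higher in replicate 2 was Nr4a1, with 2812 and 3863 counts (0.31). Ppargc1a, the coactivator of mitochondrial genes, held 19.8 and 13.8 TPM (-0.53), and Per1, a clock gene, 27.8 and 24.0 TPM (-0.01, not called).

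The slow fibre markers moved the same way as Ucp3 and Slc25a25: their summed level was 1687 TPM in replicate 1 and 1114 in replicate 2. Their median log2 ratio was -0.60, and 5 of the 9 were over 1.5-fold higher in replicate 1 (against 1.72% of genes at 100 or more counts). Smooth muscle and pericyte markers went the other way, with 7 of 7 called higher in replicate 2 and summed levels of 102 and 135 TPM. White fat markers had 5 of 8 called higher in replicate 2 at 85.0 and 101 TPM, and endothelial markers 5 of 8 at 104 and 132 TPM. Of 7 tested macrophage markers 1 was called, higher in replicate 1, and of 6 fibroblast markers 1 was called higher in replicate 1 and 2 in replicate 2. The part of any of these in the differences between carriers was not tested.

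Machinery that works beside the carriers differed little. Of 14 tested ATP synthase subunit genes 5 were called, all higher in replicate 2 (against 10.7% of all genes tested), with a median of 0.06. Of 20 other mitochondrial membrane transporters 4 were called (against 21.6% of all genes), 3 of them higher in replicate 2, with a median of 0.06. Scaling by spike-ins moved the median of all genes from 0.0055 to -0.14, so the direction of ratios this small depends on the scaling. The most abundant were Vdac1 and Vdac3, outer membrane channels, at 641 ± 12.0 and 227 ± 0.127 TPM, and Mpc1, a pyruvate carrier subunit, at 207 ± 9.81 TPM.

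Of 10 genes that import carrier proteins into the inner membrane 2 were called, both higher in replicate 1 (against 10.8% of all genes tested). Their median was -0.03, and levels were led by Tomm20, a receptor of the outer membrane, at 30.5 and 32.2 TPM. Of 7 tested creatine and adenylate kinases 1 was called higher in replicate 1 and 1 in replicate 2 (against 10.8% and 10.7% of all genes tested). Ckm, muscle creatine kinase, held 17876 ± 831 TPM, and Ckmt2, the mitochondrial creatine kinase that takes ATP from the exchangers, 471 ± 20.4 TPM. Of 6 partners of the exchangers in permeability transition and ADP supply, 0 were called by the exact binomial test (against 21.6% of all genes tested). The most abundant of these partners was Hk2, hexokinase 2, at 116 and 112 TPM.

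**Figure D5:**
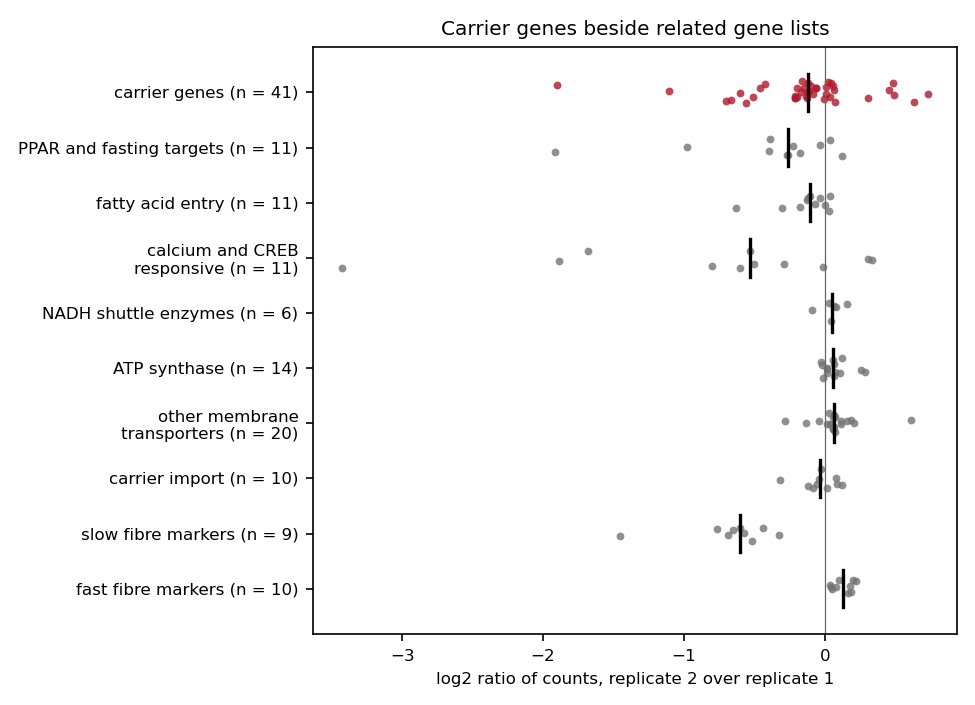
The log2 ratio of counts, replicate 2 over replicate 1, for each tested carrier gene and each tested gene of related lists, with the median as a bar and vertical scatter added for legibility. Medians were -0.12 for carriers, -0.26 for PPAR and fasting targets, -0.53 for calcium and CREB responsive genes, -0.60 for slow fibre markers and 0.06 for ATP synthase.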

How the data were processed

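The authors' deposited tables gave, for each library, estimated counts (expected counts, not normalized) and TPM per gene and per transcript. Per the deposited notes the build was mm10 with GENCODE M21. Gene values and a first set of transcript values were derived from transcriptome alignments, and a second set of transcript values directly from the reads. Per the file headers, columns are those of RSEM and kallisto, and the percent column is each transcript's share of its gene's TPM. Versions, aligner and strand setting are not given in the sources used here, so antisense or overlapping genes may share reads. Per the labels, a directional kit, ribosomal RNA reduction and spike-ins were used, and 96 spike-ins held 94798 and 116709 counts, left out of library sizes. The posterior standard deviations of counts in the authors' tables were read but are not reported.

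Expected counts were rounded, scaled by trimmed mean of M values (edgeR 4.0.16, R 4.3.3) and tested per gene at a mean of 10 or more counts by a two-sided exact binomial test conditional on the gene's total, Benjamini-Hochberg adjusted over all genes at 0.05. With 1 library per animal edgeR's quasi-likelihood test has no residual degrees of freedom, so a p compares 2 libraries and no condition. Chi-square per degree of freedom between the libraries was 94.4, so they were kept apart. Log2 ratios used a prior of 1 count, and 95% intervals are Clopper-Pearson. A gene was apart at 1.5-fold and a mean of 100 or more counts. The test was checked on simulated counts with counting error only (Poisson). That check cannot show how the calls behave at the wider spread between these libraries. Alternatives were scaling by total counts, by spike-ins or by DESeq2 1.42.0 size factors, the second quantification, other minimums, a prior of 5, an assumed variation of 0.1, TPM ratios with 0.1 or 1 TPM added and each animal left out.

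Members and gene lists were chosen with earlier results of these data known. By rule, members of 50 or more TPM, members apart, the Ucp genes and paralog pairs were described in full, other members by role, and list genes by the 3 highest TPM or when apart. Full values of other called members were added after they were seen. Not every member or marker is reported here. Slc25a5-ps has no protein-coding transcript and was left out. Sequences came from GENCODE M21 transcripts and RefSeq (GRCm38.p6). Software was Python 3.11.15 with scipy 1.17.1, numpy 2.4.6, pandas 2.3.3, Biopython 1.88 and matplotlib 3.10.9.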

Additional observations from a re-analysis of the deposited data

How the results depend on the processing

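The 14 members called and the 5 at least 1.5-fold apart were within 1.5 times of those counts under DESeq2 size factors, total counts, the second quantification and other count minimums (13 or 14 called and 4 to 7 apart). Spike-ins gave 25 members called (24 higher in replicate 1, or 58.5% against 31.0% of all genes), and an assumed variation of 0.1 gave 2 (4.88% against 2.06%). The members' median log2 ratio of -0.12 became -0.0021 under total counts and -0.26 under spike-ins, and lay between -0.16 and -0.11 under the others. Ratios of Slc25a4, Slc25a3 and Slc25a11 turned to -0.10, -0.14 and -0.14 under spike-ins, and that of Slc25a12 to 0.11 under total counts, each by the change of scaling factor. The family's share of nuclear protein-coding TPM was 0.500% and the exon 3A share of Slc25a3 84.4% in the second quantification. With each animal left out they were 0.528% to 0.565% and 93.7% to 95.0%. These are only the values of the other animal, so leaving 1 out is no separate check. The cause of the differences between quantifications was not tested. Depth limits the 9 members under a mean of 10 counts and paralog ratios that rest on Slc25a13 or Slc25a18. With 2 animals in 1 group, no variation between animals of a condition could be tested.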
